A study of Mus musculus with 48 samples.

Results

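Dichloroacetic acid (DCA), a drinking-water disinfection by-product, was given to mice, and their livers were profiled after fixation in formalin and embedding in paraffin (FFPE). The data described here are the 6 FFPE liver libraries from the highest dose, 427 mg/kg-d (animals 97 to 102), and the 6 FFPE libraries from vehicle controls (animals 3 to 8). They were chosen by the dose and preservation in the sample labels, and are 12 of the 24 FFPE libraries and of the 48 libraries of the series. All animals were male B6C3F1 mice, 4 weeks old in the study description, and received DCA or the vehicle in drinking water for 6 days. The labels name no genetic change and no second agent in any group. FFPE pieces came from the left lateral and right medial lobes. Frozen (FROZ) pieces of the same mice, labelled as mixed lobes, came from right medial and left lateral caudate tissue, so FFPE and FROZ differ in the lobes sampled as well as in preservation. Both had been stored for decades before TempO-Seq. In TempO-Seq, pairs of detector oligos that anneal next to each other on an mRNA are ligated, amplified and sequenced, directly from lysed tissue for FFPE and from isolated RNA for FROZ. The labels name no pooling, and 1 library stands for 1 mouse. The question is which liver functions changed by DCA can still be read in fixed tissue, with FFPE libraries at 313 mg/kg-d and the FROZ libraries of the same mice used only for reference.

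The liver burns fatty acids along 3 routes. Omega-oxidation by Cyp4a enzymes in the endoplasmic reticulum marks long chains for shortening, peroxisomes shorten very long chains, and mitochondria complete the oxidation. PPARα, a nuclear receptor for fatty acids that binds DNA with RXR, switches on genes of all these routes in mouse liver. DCA is known as an inhibitor of the pyruvate dehydrogenase kinases and is broken down by the glutathione transferase Gstz1. Hepatocytes also secrete most plasma proteins, among them protease inhibitors (serpins), complement and acute phase proteins, fold these in the endoplasmic reticulum, and express many genes with a daily rhythm.

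The FFPE table lists 6673 genes as log2(CPM + 1), where CPM is the count per 1000000 reads on the listed genes. Reads on listed genes, estimated from the CPM of 1 read, were 4.53e+06 to 5.81e+06 in controls and 4.23e+06 to 6.01e+06 at 427 mg/kg-d. The number of genes at 0 ran from 131 to 791 in controls and from 65 to 249 at 427 mg/kg-d, and animal 3 held the 791. These measures overlapped (exact permutation test over the 6 and 6 libraries, two-sided, p = 0.903 and 0.104). The top 10 genes of each library together held 22.0 to 25.4% of reads in controls and 18.4 to 20.7% at 427 mg/kg-d, without overlap (exact permutation p = 0.00216, the smallest possible, and 0.0141 after adjustment over 13 library measures). The authors' assay attenuated some abundant probes, so levels of different genes cannot be ranked by abundance. A value of 0 allows a level of up to 3 reads, and this limit covers counting error only.

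Differentially expressed genes (DEGs) were called at a false discovery rate (FDR) under 0.05 and a fold change above 2, by limma across all 6673 genes. At 427 mg/kg-d, 121 genes were DEGs (1.81% of those tested), of which 82 increased (1.23%) and 39 decreased (0.584%). In 107 of them the 6 treated libraries did not overlap the 6 controls, against 299 genes (4.48%) among all genes. An FDR under 0.05 was reached by 161 genes and an unadjusted p under 0.05 by 581. The median log2 fold change over all genes was 0.18 rather than 0, and with libraries rescaled by their median ratio it was 0.07. Under that scaling 123 genes were called, 69 increased and 54 decreased, so that the share of increased genes was 56.1% against 67.8%, and 108 DEGs were shared. Log2 fold changes below are to be read against this shift.

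The 5 genes given to check the label changed as follows. Cyp4a14, a fatty acid omega-hydroxylase that responds to PPARα, lay at 0 to 0.48 (median 0.11) in controls, 3 of them at 0 and none above 3 reads, and at 8.08 to 9.51 (median 8.97) in treated libraries. The groups were far apart, and the treated level was at least 162.5-fold higher on the CPM + 1 scale, taking the lowest treated library against the highest level that 3 reads give in a control library. Its fitted log2 difference of 8.77 ± 0.64 (SE, FDR = 2.73e-11) depends on the offset and is no bound. The related Cyp4a10 rose from 0.53–5.61 (median 4.71) to 10.51–11.38 (median 10.98), by 7.23 ± 0.89 (SE, FDR = 1.13e-06). Ehhadh, the bifunctional enzyme of peroxisomal oxidation, rose from 0.26–1.06 (median 0.66) to 5.21–6.82 (median 5.93), by 5.35 ± 0.71 (SE, FDR = 4.09e-06). Dbp, a rhythmic transcription factor, rose from 0–4.28 (median 3.37) to 5.27–9.92 (median 8.45), by 5.19 ± 0.81 (SE, FDR = 6.79e-05). Serpina1e, an α1-antitrypsin of mouse plasma, fell from 10.73–12.07 (median 11.67) to 4.93–7.59 (median 6.58), by 5.27 ± 0.37 (SE, FDR = 2.43e-11). No treated library overlapped a control in any of these 5 genes. In mm10 they lie at chr4:115486200-115496142 (Cyp4a14), chr4:115518264-115533649 (Cyp4a10), chr16:21761287-21787807 (Ehhadh), chr7:45705088-45710203 (Dbp) and chr12:103946931-103958975 (Serpina1e).

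**Figure D1:**
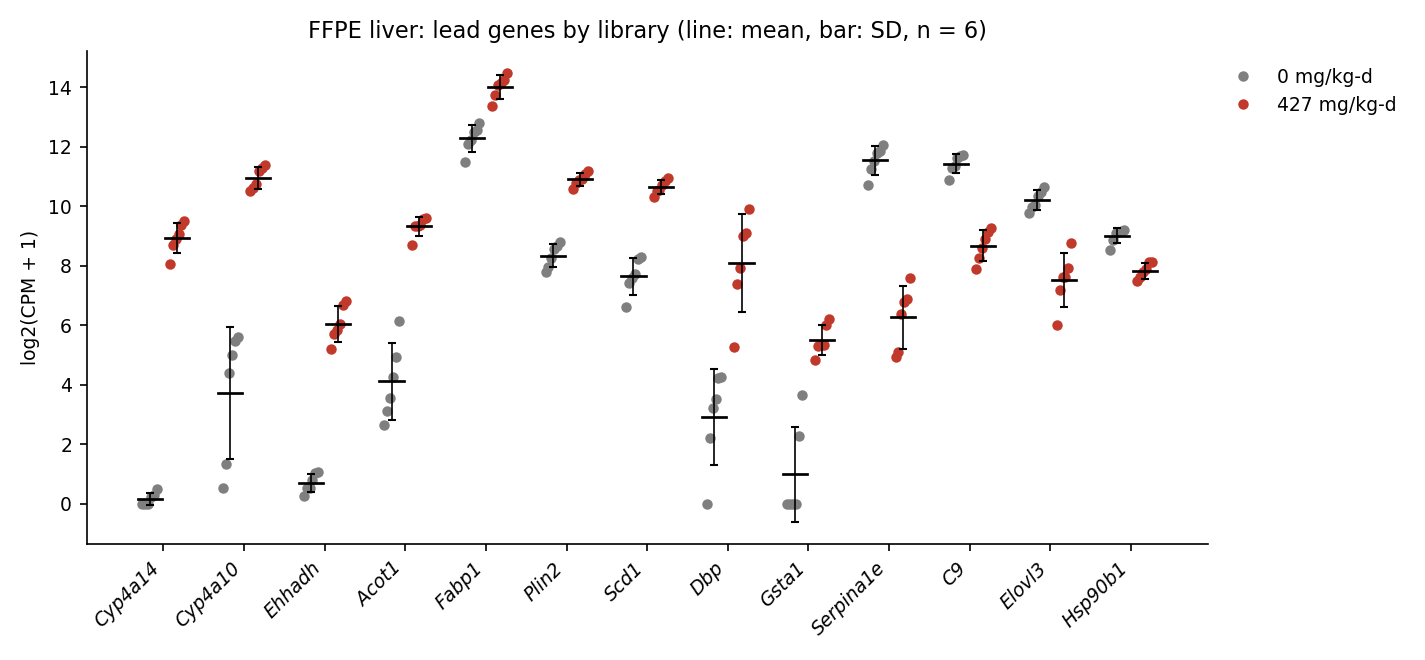
Levels of 13 genes in FFPE liver on the log2(CPM + 1) scale, with 1 point per library for controls (grey) and 427 mg/kg-d (red), the mean as a line and the SD as a bar (n = 6). The treated points lie above the controls from Cyp4a14 to Gsta1 and below them from Serpina1e to Hsp90b1, without overlap in any gene shown.

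The largest fitted increases of all genes, Cyp4a14 and Cyp4a10, belong to omega-oxidation. Of its 13 listed members, 4 rose and none fell (30.8%, median log2 fold change 0.61). Besides Cyp4a14 and Cyp4a10, these were Cyp4a32, at 0 to 5.85 (median 4.91) in controls and 7.79 to 8.68 (median 8.30) at 427 mg/kg-d, and Aldh3a2. The last, a fatty aldehyde dehydrogenase, rose from 6.50–7.95 (median 7.82) to 10.46–12.31 (median 11.52), by 3.86 ± 0.37 (SE, FDR = 6.7e-09), with all treated libraries above all controls. Cyp4a genes are close copies: 29.8% of the 50-base windows of Cyp4a10 transcripts and 43.8% of those of Cyp4a32 also occur in Cyp4a relatives, so their reads may be shared. The exact probe positions were not used here. Some calls depended on the offset: with 0.0001 CPM in place of 1, Cyp4a10, Cyp4a32, Dbp, Acot1, Acot3, Cpt1b, Gsta2, Cyp2a4, Serpina7, Eci1, Serpina4-ps1 and Saa1 were among the DEGs not called (for Cyp4a10 at an FDR of 0.0714), and Cyp4a14, Ehhadh, Gsta1 and Serpina1e were.

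Peroxisomal fatty acid oxidation had the most called members of any fatty acid route. Of 21 listed genes, 7 rose and none fell (33.3%, median 1.13). The thiolases Acaa1b and Acaa1a, which release acetyl-CoA, rose by 3.34 ± 0.44 (SE) and 2.39 ± 0.20 (SE). Of the 50-base windows of Acaa1b, 30.5% also occur in Acaa1a, so their reads may be shared. Hsd17b4 and Eci2, which act on the intermediates, rose by 1.13 ± 0.22 (SE) and 1.53 ± 0.39 (SE). Crat, the carnitine acetyltransferase that hands products on to mitochondria, was called at 2.72 ± 0.72 (SE, FDR = 0.0326), but held its call in 2 of 12 fits that left out 1 library (FDR 0.0349 to 0.091). Pex11a, which divides peroxisomes, lay at 0 to 4.37 (median 3.43) in controls and 5.34 to 6.49 (median 5.92) at 427 mg/kg-d without overlap, and did not pass (FDR = 0.116).

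In mitochondrial fatty acid oxidation, 4 of 19 listed genes rose and none fell (21.1%, median 0.69). Acadm, the medium-chain dehydrogenase, rose from 7.48–8.68 (median 8.20) to 9.51–9.89 (median 9.66), by 1.51 ± 0.21 (SE, FDR = 7.11e-06). Decr1, needed for unsaturated chains, rose from 6.00–7.70 (median 6.73) to 8.02–9.03 (median 8.49), by 1.71 ± 0.31 (SE, FDR = 0.000683). The remaining calls were Acad11 (1.37 ± 0.22) and the isomerase Eci1 (1.29 ± 0.34), and Eci1 held its call in 2 of 12 fits that left out 1 library. Cpt2, of the carnitine shuttle, was higher by 1.20 ± 0.37 (SE) with an FDR of 0.101. Ketone body synthesis had 3 listed members and none was called, none at an unadjusted p under 0.05 either, and 1 with library quality weights. All 3 lay above 0, at a median log2 fold change of 1.32.

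Genes that act on fatty acids before oxidation rose as well. Of 5 listed acyl-CoA thioesterases, which cut acyl-CoA to free acids, Acot1 rose from 2.66–6.14 (median 3.91) to 8.70–9.62 (median 9.36) (log2 5.21 ± 0.65 (SE), FDR = 1.39e-06). Acot3 rose from 0–3.10 (median 2.65), with 2 controls at or near 0, to 5.77–8.06 (median 7.08) (log2 5.11 ± 0.98 (SE), FDR = 0.00141). Neither gene's groups overlapped. Of their 50-base windows, 19.2% (Acot1) and 19.1% (Acot3) also occur in other genes, mostly Acot relatives that include each other. Among 15 listed genes of uptake, binding and activation 4 rose and none fell (26.7%, median 0.79). Fabp1, the main intracellular fatty acid binding protein of liver, rose from 11.48–12.81 (median 12.37) to 13.37–14.48 (median 14.11), by 1.73 ± 0.24 (SE, FDR = 1.04e-05). Acsl1, which activates fatty acids to acyl-CoA, rose by 1.64 ± 0.17 (SE) from a control range of 10.38 to 11.21. Slc27a2, a peroxisomal and membrane acyl-CoA synthetase, rose by 1.09 ± 0.17 (SE) and missed the fold threshold under median-ratio scaling. The acyl-CoA binding protein Dbi rose by 1.19 ± 0.23 (SE), and by 0.99 without control animal 3, which was the lowest control at 5.90.

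Lipid droplet genes showed changes in both directions. Of 14 listed, 4 rose and 1 fell (35.7% called, median 0.94). Plin2, the coat protein of hepatocyte droplets, rose from 7.80–8.80 (median 8.42) to 10.59–11.18 (median 10.90), by 2.56 ± 0.34 (SE, FDR = 3.72e-06). G0s2, an inhibitor of triglyceride lipase, rose from 5.11–8.89 (median 8.23) to 9.62–10.58 (median 9.98), by 2.21 ± 0.50 (SE, FDR = 0.0085). The phosphatidate phosphatases of the lipin family split: Lpin2 rose from 8.83–9.42 (median 9.12) to 10.66–11.53 (median 11.29), and Lpin1 fell from 9.11–10.27 (median 9.38) to 6.46–7.55 (median 6.97). Their log2 fold changes were 2.05 ± 0.19 (SE) and -2.46 ± 0.31 (SE, FDR = 2.34e-09 and 1.61e-06), and neither gene's groups overlapped.

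Among further PPARα targets, 2 of 10 listed genes rose and none fell (20%, median 1.05). Retsat, the retinol saturase, rose from 5.80–6.76 (median 6.70) to 9.67–10.39 (median 10.27), by 3.70 ± 0.33 (SE, FDR = 1.86e-09). Cpt1b, a carnitine palmitoyltransferase best known from muscle, rose from 0–2.37 (median 0.75) to 3.88–6.23 (median 5.42), by 4.24 ± 0.93 (SE, FDR = 0.0065), against 1.52 ± 0.61 in FROZ (FDR = 0.0624). Of its transcript windows 78.6% also occur in another annotated gene that overlaps it. Angptl4, a secreted lipase inhibitor, stayed below the threshold at 1.51 ± 0.96 (SE, FDR = 0.826).

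Promoters of Fabp1 and Plin2 are shown because each holds a match to the element that PPARα binds with RXR, 2 copies of AGGTCA with 1 base between them (AGGTCANAGGTCA, up to 2 mismatches, both strands). The lines give the 250 bases before the RefSeq start of each gene in GRCm38.p6, 5′ to 3′ on the gene's strand, with the match in capitals. Fabp1 is chr6:71199629-71199878 (+ strand) and matches at -67 to -55 with 1 mismatch. Plin2 is chr4:86670060-86670309 (- strand) and matches at -225 to -213 with 2 mismatches.
Fabp1: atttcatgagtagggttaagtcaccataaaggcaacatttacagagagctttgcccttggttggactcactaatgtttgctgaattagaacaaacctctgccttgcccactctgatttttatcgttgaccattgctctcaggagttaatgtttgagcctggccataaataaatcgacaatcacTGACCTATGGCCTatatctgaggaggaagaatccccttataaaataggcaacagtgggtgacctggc
Plin2: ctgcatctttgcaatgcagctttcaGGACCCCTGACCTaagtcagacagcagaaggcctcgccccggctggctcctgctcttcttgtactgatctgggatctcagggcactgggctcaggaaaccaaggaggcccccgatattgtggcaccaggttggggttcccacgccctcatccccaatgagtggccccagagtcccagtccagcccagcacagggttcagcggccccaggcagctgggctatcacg
The RefSeq table held promoters for 62 increased and 30 decreased DEGs. The element was found in 6 of the increased (9.68%), in 2 of the decreased (6.67%) and in 3.72% of all 27025 genes with an entry, as in 3.72% of the 5401 among them that were tested in FFPE. Cyp4a14 and Cyp4a10 had no entry.

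Genes that make and modify fatty acids also changed. Of 21 listed, 5 rose and 1 fell (28.6% called, median 0.60). Scd1, the stearoyl-CoA desaturase, rose from 6.62–8.29 (median 7.65) to 10.31–10.97 (median 10.64), by 3.01 ± 0.30 (SE, FDR = 2.14e-08). Me1, which supplies NADPH, rose from 5.70–7.40 (median 6.54) to 8.26–8.85 (median 8.61), by 2.02 ± 0.36 (SE, FDR = 0.000628). Elovl6, an elongase of saturated chains, rose by 1.92 ± 0.47 (SE, FDR = 0.0156), and lost its call without control animal 6 (log2 1.63, FDR = 0.0622). Fasn and Fads2 rose by 1.37 ± 0.31 (SE) and 1.16 ± 0.24 (SE). Elovl3, an elongase of very long chains with higher expression in males, fell from 9.79–10.64 (median 10.18) to 6.00–8.78 (median 7.63), by 2.68 ± 0.40 (SE, FDR = 2.76e-05). None of 19 listed genes of cholesterol synthesis was called by limma, 5 had an unadjusted p under 0.05, and 2 were called with library quality weights.

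Most called genes of conjugation were increased, with the pi class of glutathione transferases as the exception. Of 17 listed glutathione transferases, which couple glutathione to reactive compounds, 5 rose and 2 fell (41.2% called, median 0.90). Gstt2 rose from 6.02–7.06 (median 6.68) to 8.89–9.64 (median 9.27), by 2.63 ± 0.22 (SE, FDR = 2.99e-10), and Gstm3 from 8.33–8.96 (median 8.91) to 10.08–10.96 (median 10.39), by 1.65 ± 0.21 (SE, FDR = 1.39e-06). Gsta1 lay at 0 to 3.65 (median 0) in controls, 4 of them at 0, and at 4.85 to 6.22 (median 5.33) at 427 mg/kg-d. Gsta2 was at 0 to 3.65 (median 0.79) and 4.79 to 5.62 (median 5.23), and 90.5% of the windows of Gsta1 and 49.8% of those of Gsta2 occur in relatives, so these 2 results cannot be separated with certainty. The pi-class genes Gstp1 and Gstp2, higher in male liver, fell by 1.05 ± 0.23 and 1.05 ± 0.23 (SE), and they too are close copies. Ephx1, the microsomal epoxide hydrolase, rose from 7.98–8.86 (median 8.34) to 9.98–11.01 (median 10.59), by 2.24 ± 0.26 (SE, FDR = 3.29e-07). It counts among 18 listed Nrf2 targets, of which 5 rose and none fell (27.8%, median 0.84), the others being Gsta1, Gsta2, Gstm3 and Gstm1.

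UDP-glucuronosyltransferases added 2 increased members of 13 (15.4%, median 0.55). Ugt2b35 rose from 7.04–8.26 (median 7.81) to 9.67–10.27 (median 10.08), by 2.30 ± 0.23 (SE, FDR = 2.14e-08). Ugt1a6a, at 1.62 ± 0.44 (SE, FDR = 0.0418), held its call in 1 of 12 fits that left out 1 library, and 52.1% of its windows are shared with other Ugt1a genes. The export pumps Abcc3 and Abcc2, which move conjugates into blood and bile, rose by 1.81 ± 0.32 (SE) and 1.48 ± 0.29 (SE, FDR = 0.000628 and 0.00149), with no overlap of groups. Nr1i3, the constitutive androstane receptor that regulates drug metabolism, rose from 5.81–7.71 (median 7.09) to 7.82–8.65 (median 8.43), by 1.41 ± 0.34 (SE), and lost its call without control animal 4 (FDR = 0.0582). Ppard, the PPARδ receptor, fell from 8.13–8.88 (median 8.50) to 5.53–7.67 (median 6.47), by 1.96 ± 0.37 (SE, FDR = 0.00117). These were the called members among 16 listed nuclear receptors.

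Of 27 listed cytochromes of families 1 to 3, 2 rose and none fell (7.41%, median 0.03). Both hydroxylate steroids or coumarin: Cyp2a5 rose from 7.58–8.77 (median 8.41) to 9.69–11.39 (median 10.45), by 2.18 ± 0.32 (SE, FDR = 2.16e-05). Cyp2a4, more abundant in female liver, rose from 2.88–5.93 (median 4.60) to 7.38–9.49 (median 8.31), by 3.86 ± 0.87 (SE, FDR = 0.00865). No treated library of either gene overlapped a control. Of their windows, 37 and 38% are shared.

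Clock genes were read through few members in FFPE. Dbp was the 1 called gene of 9 listed clock outputs (11.1%, median 0.25), and its treated libraries spread widely, from 5.27 in the lowest to 9.92 in the highest. Nr1d1, the repressor REV-ERBα, was the 1 called gene of 8 listed core clock genes (12.5%, median -0.14). It rose from 0.24–4.54 (median 3.52) to 5.89–7.29 (median 6.55), by 3.43 ± 0.84 (SE, FDR = 0.0179). Control animal 6 was far below the other controls, and without it the fold change was 2.84 with an FDR of 0.0648. Without treated animal 97 the FDR was 0.0566. In FROZ the values were 3.21 ± 0.17 for Nr1d1 and 3.13 ± 0.44 for Dbp, and Nr1d2 (2.18 ± 0.17), Per3 (1.77 ± 0.30) and Arntl (-1.23 ± 0.26) were called there but are not listed in FFPE. The time of day at which livers were taken is not given in the sources used here.

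Dbp binds a sequence called the D-box (TTATGTAA, searched with up to 1 mismatch on both strands), and Cyp2a4 and Cyp2a5 are classical genes with rhythmic expression. Their promoters are shown because both are DEGs and hold a match, in capitals, at -70 to -63 in Cyp2a4 (chr7:26306942-26307191, + strand) and at -71 to -64 in Cyp2a5 (chr7:26835089-26835338, + strand).
Cyp2a4: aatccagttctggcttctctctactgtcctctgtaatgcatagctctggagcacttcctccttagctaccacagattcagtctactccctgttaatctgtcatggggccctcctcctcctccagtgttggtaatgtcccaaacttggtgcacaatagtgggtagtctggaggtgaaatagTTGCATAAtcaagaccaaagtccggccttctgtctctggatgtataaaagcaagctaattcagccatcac
Cyp2a5: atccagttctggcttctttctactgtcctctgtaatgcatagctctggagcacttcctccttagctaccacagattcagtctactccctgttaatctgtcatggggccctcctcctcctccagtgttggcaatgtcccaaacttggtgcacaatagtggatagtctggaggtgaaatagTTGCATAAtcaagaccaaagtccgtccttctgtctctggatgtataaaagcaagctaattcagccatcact
Shifted by 1 base, the sequences agree at 245 of 249 positions. Such a match stood in 17.7% of the increased and 10% of the decreased DEGs with an entry, in 10.2% of the 5401 genes with an entry that were tested in FFPE, and in 16.6% of all genes with an entry. These shares were not compared by a test.

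**Figure D2:**
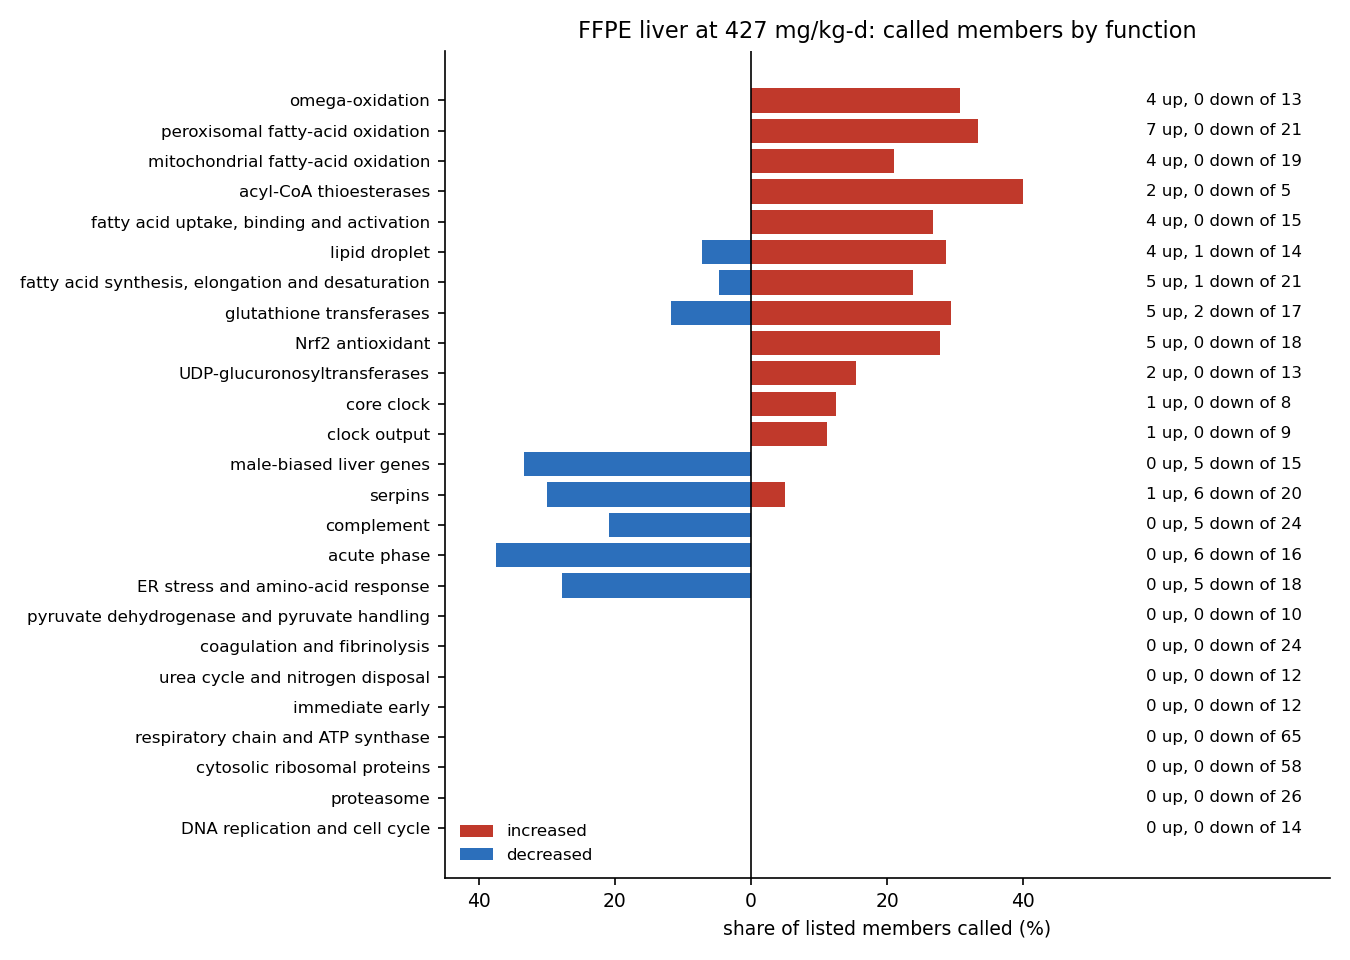
Share of listed members called as DEGs at 427 mg/kg-d in FFPE liver for 25 gene lists, with increased members to the right (red) and decreased members to the left (blue) and the counts printed beside each bar. Fatty acid functions lie to the right, plasma proteins and endoplasmic reticulum genes to the left, and the lowest 8 lists hold no called gene.

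Genes of secreted plasma proteins fell in several groups. Of 20 listed serpins, 6 fell and 1 rose (35% called, median -0.98). Beside Serpina1e, Serpina1b fell from 14.79–15.33 (median 15.07) to 13.51–13.79 (median 13.60), by 1.43 ± 0.17 (SE, FDR = 3.56e-07), without overlap, and Serpina1a and Serpina3k fell by 1.26 ± 0.31 and 1.26 ± 0.32. The pseudogene Serpina4-ps1 was called at -2.88 ± 0.73 (SE) and held its call in 6 of 12 fits that left out 1 library. The exception was Serpina7, the thyroxine-binding globulin. It lay at 0 to 4.26 (median 0.12) in controls, 3 of them at 0, and at 4.58 to 7.06 (median 6.25) in treated libraries (log2 4.78 ± 1.13 (SE), FDR = 0.0123).

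Complement genes fell in 5 of 24 listed cases and rose in none (20.8%, median -0.71). C9, which forms the pore of the membrane attack complex, fell from 10.89–11.74 (median 11.48) to 7.90–9.29 (median 8.75), by 2.75 ± 0.22 (SE, FDR = 2.37e-10). C8a, another part of this pore, fell from 9.53–9.92 (median 9.87) to 8.02–8.97 (median 8.63), by 1.24 ± 0.18 (SE, FDR = 2.59e-05), and C8g by 1.01 ± 0.20. C8b was called at -1.77 ± 0.47 (SE) and Serping1, the C1 inhibitor, at -1.02 ± 0.25 (SE), and they held their calls in 4 and 8 of 12 fits that left out 1 library (FDR up to 0.119 and 0.0598). The 3 chains of C8 and C9 were thus all lower, and C9 by the largest amount.

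Acute phase genes, which the liver makes during inflammation, fell in 6 of 16 listed cases and rose in none (37.5%, median -1.17). Itih4, an inter-α-trypsin inhibitor chain, fell from 8.54–8.88 (median 8.71) to 6.45–7.35 (median 7.15), by 1.67 ± 0.20 (SE, FDR = 8.41e-07). Il1r1, the receptor of interleukin-1, fell from 8.02–8.72 (median 8.50) to 5.75–7.14 (median 6.75), by 1.80 ± 0.36 (SE, FDR = 0.00185). Orm1, an acid glycoprotein, was called at -1.66 ± 0.39 (SE) and lost its call without treated animal 102 (FDR = 0.0505). Saa1, a serum amyloid, lay at 8.72 to 15.07 (median 9.96) in controls and 6.28 to 10.004 (median 7.22) at 427 mg/kg-d, with overlap, a difference of -3.04 ± 0.80 (SE, FDR = 0.0312). It held its call in 6 of 12 fits that left out 1 library. Control animal 8 was far above the other controls, and without it the fold change was -2.16 with an FDR of 0.114. Without animal 3, 97, 98, 99 or 102 the FDR was 0.0648 to 0.0997. Of the windows of Saa1, 31.5% also occur in Saa2 or Saa3. None of 24 listed coagulation genes was called by limma, although 10 had an unadjusted p under 0.05, all of them lower (median -0.56), and 1 was called with library quality weights.

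Of 15 listed genes with higher expression in male liver, 5 fell and none rose (33.3%, median -1.05), and of 4 listed with higher expression in female liver 2 rose (median 2.32). Cyp7b1, an oxysterol hydroxylase of bile acid synthesis, fell from 5.52–7.85 (median 6.45) to 1.66–4.75 (median 4.14), by 2.83 ± 0.47 (SE, FDR = 0.000201). Selenbp2 fell from 8.89–9.54 (median 9.21) to 6.34–7.88 (median 6.88), by 2.16 ± 0.24 (SE, FDR = 1.18e-07), and 43.9% of its windows also occur in Selenbp1. The other decreased members, Serpina1e, Elovl3 and Gstp1, and the increased Acot3 and Cyp2a4, are described above under their own functions. All animals were male.

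Of 18 listed genes of endoplasmic reticulum stress and the amino-acid response, 5 fell and none rose (27.8%, median -0.74). An unadjusted p under 0.05 in limma was reached by 11 of the 18, all lower. Sdf2l1, a chaperone cofactor, fell from 8.19–9.75 (median 9.24) to 5.46–7.43 (median 6.95), by 2.25 ± 0.41 (SE, FDR = 0.000628). Herpud1, of protein degradation at the membrane, fell from 7.16–8.58 (median 7.91) to 5.79–6.86 (median 6.17), by 1.57 ± 0.34 (SE, FDR = 0.0048). The major chaperone Hspa5 (BiP) fell from 13.26–14.73 (median 13.72) to 12.44–13.08 (median 12.65), by 1.10 ± 0.23 (SE, FDR = 0.00339). Hsp90b1 and Hyou1 fell by 1.17 ± 0.21 and 1.20 ± 0.28, and in none of the 5 did the groups overlap. Among 15 listed heat shock genes none was called by limma, 2 had an unadjusted p under 0.05, and 1 was called with library quality weights.

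The stress element of such promoters, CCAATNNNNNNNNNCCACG (no mismatch, both strands), is rare. It stood in 35 of 27025 genes (0.13%), in 14 of the 5401 tested in FFPE (0.259%), in none of 62 increased DEGs and in 3 of 30 decreased DEGs, which are Hspa5, Hsp90b1 and Syvn1, a ubiquitin ligase of the same membrane. Syvn1 fell by 1.14 ± 0.27 (SE, FDR = 0.0141). The chaperone promoters are shown with the matches in capitals. Hspa5 (chr2:34771840-34772089, + strand) holds 1, at -65 to -47, and Hsp90b1 (chr10:86705445-86705694, - strand) holds 2, at -212 to -194 and on the other strand at -107 to -89.
Hspa5: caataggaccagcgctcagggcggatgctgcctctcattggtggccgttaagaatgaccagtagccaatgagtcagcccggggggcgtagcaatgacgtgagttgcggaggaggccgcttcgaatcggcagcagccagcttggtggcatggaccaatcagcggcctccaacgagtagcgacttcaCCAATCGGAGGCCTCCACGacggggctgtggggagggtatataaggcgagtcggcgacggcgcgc
Hsp90b1: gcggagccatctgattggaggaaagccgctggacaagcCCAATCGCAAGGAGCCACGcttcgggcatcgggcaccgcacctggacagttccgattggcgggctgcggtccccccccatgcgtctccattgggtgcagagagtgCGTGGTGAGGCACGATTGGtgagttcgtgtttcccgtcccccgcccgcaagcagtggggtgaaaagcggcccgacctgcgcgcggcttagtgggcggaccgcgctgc
Sdf2l1 and Herpud1 hold no such run of letters in this window, and Hyou1 had no entry. A match is a description of the letters, and neither binding nor a cause was measured.

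Other functions stood below the threshold in fixed tissue. Pyruvate dehydrogenase, whose kinases DCA inhibits, was put in 1 list with other genes of pyruvate handling. That list had 10 members in FFPE and none called by limma, with 1 at an unadjusted p under 0.05 and none with library quality weights. The median log2 fold change of this list was 0.76, against 0.18 over all genes, and 8 of the 10 lay above 0. Its member Pdp2 lay at 6.61 to 7.48 (median 7.15) in controls and 7.56 to 8.35 (median 7.80) at 427 mg/kg-d, without overlap. The limma difference was 0.81 ± 0.65 (SE, FDR = 0.956), and Pdp2 was called in FROZ at 1.05 ± 0.11. The kinase genes Pdk1 to Pdk4 are not listed in FFPE, and the log2 fold change of Pdk4, a PPARα target, was 2.98 ± 0.43 in FROZ (FDR = 6.71e-06). Gstz1 lay at 7.90 to 9.29 (median 8.92) in controls and 8.78 to 9.04 (median 8.83) at 427 mg/kg-d, a difference of 0.05 ± 0.21 (SE, FDR = 1) that FROZ gave as 0.04 ± 0.09. None of 58 cytosolic ribosomal proteins was called, with or without those weights, and 1 had an unadjusted p under 0.05, at a median of -0.04. For 65 genes of the respiratory chain and ATP synthase the counts were 0 called, 16 at an unadjusted p under 0.05, 15 of them higher, and 3 called with library quality weights (median 0.48). The proteasome (26 genes), urea cycle (12) and DNA replication and cell cycle (14) had no called member, with 0, 3 and 1 at an unadjusted p under 0.05 and 0, 0 and 1 called with the weights. Of 12 listed immediate early genes none was called, 4 had an unadjusted p under 0.05, all 4 higher, and 2 were called with the weights. Egr1, an early growth response factor, lay at 0 to 3.82 (median 1.47) in controls and 2.77 to 5.79 (median 4.02) at 427 mg/kg-d (2.49 ± 1.12, FDR = 0.476), against 2.11 ± 0.41 in FROZ (FDR = 0.000275).

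Of smaller lists, amino acid breakdown had 1 called gene of 31, the proline dehydrogenase Prodh, which fell from 9.26–10.13 (median 9.96) to 8.20–9.07 (median 8.66). The methionine cycle had 1 of 17, Mat1a, the S-adenosylmethionine synthetase of liver, at 1.02 ± 0.18 (SE), close to the fold threshold. Mitochondrial carriers had 2 increased of 28, Slc25a47 (1.70 ± 0.35) and the glutamate carrier Slc25a22 (1.11 ± 0.26). Apolipoproteins had 1 of 20, Apoc2, an activator of lipoprotein lipase (1.35 ± 0.26), and 78.3% of its windows also occur in another annotated gene. Carboxylesterases had 1 of 13, Ces1f at 1.07 ± 0.23 (SE), which was 0.95 without control animal 8, and mitochondrial ribosomal proteins had 1 of 51, Mrpl38 at 1.95 ± 0.39 (SE). Bile acid synthesis and transport had 3 of 19, which are Abcc3, Abcc2 and Cyp7b1. The called share was 1.96% for mitochondrial ribosomal proteins and 3.23% for amino acid breakdown, near the 1.81% of all genes tested. For the other lists with a call it was 5% (apolipoproteins) to 15.8% (bile acids). A single call in a list was not tested against the share over all genes and says little about the function. No member was called by limma among 7 genes of growth hormone signalling, 4 sulfotransferases, 14 genes of glycogen, 13 of insulin signalling, 10 p53 targets, 9 of iron handling and 13 interferon-stimulated genes, and in this order 1, 0, 2, 3, 3, 3 and 2 of them had an unadjusted p under 0.05. In all, 85 of 121 DEGs belonged to a list and 36 to none.

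Markers of liver cell types were measured beside these changes. The summed level of 13 listed hepatocyte markers was 55602 to 71291 CPM in controls and 37642 to 42791 CPM at 427 mg/kg-d, without overlap (exact permutation test, p = 0.00216, adjusted p = 0.0141). Apoa1 and Alb, the members with the highest values, differed by -0.79 and -0.61 on the log2 scale, and Trf, the iron carrier of plasma, was the 1 called member (-1.28 ± 0.17). Hnf4a and Asgr1, which define hepatocytes but are not plasma proteins, differed by 0.26 ± 0.22 and -0.04 ± 0.17. The 9 listed Kupffer cell and macrophage markers summed to 494 to 771 CPM in controls and 362 to 499 CPM at 427 mg/kg-d (exact permutation p = 0.00433, adjusted p = 0.0188). None of the 9 was called by limma, also with the weights, and 3 had an unadjusted p under 0.05, and the defining Clec4f, Vsig4, Adgre1, Timd4 and Marco are not listed. Sums for 6 red blood cell markers were 147 to 329 and 43.8 to 204 CPM (adjusted p = 0.0774). Sums of stellate, endothelial, bile duct, neutrophil and pancreas markers, and of pericentral and periportal hepatocyte markers, overlapped between the groups (adjusted p of 0.18 or more), and no lymphocyte or adipocyte marker is listed. The neutrophil and pancreas values rest on 1 listed marker each, of 9 and 10 sought, and the bile duct sum on 3 of 9. The content of these cell types was thus hardly measured. In such bulk tissue fewer cells of a type and less RNA per cell cannot be told apart, and the part of these sums in the decreased plasma protein and complement genes was not tested.

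The same mice were read in FROZ with less spread. There, 395 of 11275 genes were DEGs (3.5%), and the median SE of a log2 fold change was 0.14 against 0.78 in FFPE. Of the 395, 84 were also DEGs in FFPE, all in the same direction, which is 21.3% of the FROZ and 69.4% of the FFPE DEGs. Another 192 were listed in FFPE without a call, 180 of them with the same sign, and 119 were not listed. The median FROZ level in the higher group was 8.71 for the DEGs called in both, 5.68 for those listed and not called, and 3.57 for those not listed. Named examples that are not listed in FFPE are Acot2 (4.96 ± 0.40 in FROZ), a mitochondrial thioesterase, Cyp4a31 (4.95 ± 0.36), Cyp2b9 (4.71 ± 0.39), Cyp2a22 (3.27 ± 0.25) and the keratin Krt23 (3.17 ± 0.17). The FFPE values used here leave out genes of low geometric mean, so a gene not listed was not shown to be unreadable. For Acot2, Cyp4a31 and Cyp2b9 the paper reports significant induction in TempO-Seq FFPE at the highest dose (Wilcoxon rank sum test). Examples that are listed without a call are C4b, at -0.99 ± 0.32 (SE) in FFPE (FDR = 0.117) and -2.07 ± 0.16 in FROZ, and Cd36, a fatty acid transporter, at 1.81 ± 1.06 (SE) and 2.08 ± 0.30.

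Spread in FFPE depended on the level of the gene. Over genes in both tables with a mean FFPE level below 4, the median SD within groups was 1.43 in FFPE and 0.233 in FROZ, and 0.481% of these genes were DEGs in FFPE against 3.95% in FROZ. For levels of 10 and above the SDs were 0.237 and 0.184, and 16.0 and 10.1% of genes were called. Of all FROZ DEGs listed in FFPE, 192 were not called there and 84 were. In the same order, the counts were 9 and 3 for complement, 6 and 0 for immediate early genes and 5 and 0 for carboxylesterases. They were 4 and 6 for peroxisomal and 4 and 3 for mitochondrial fatty acid oxidation. Differences between these lists were not tested.

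**Figure D3:**
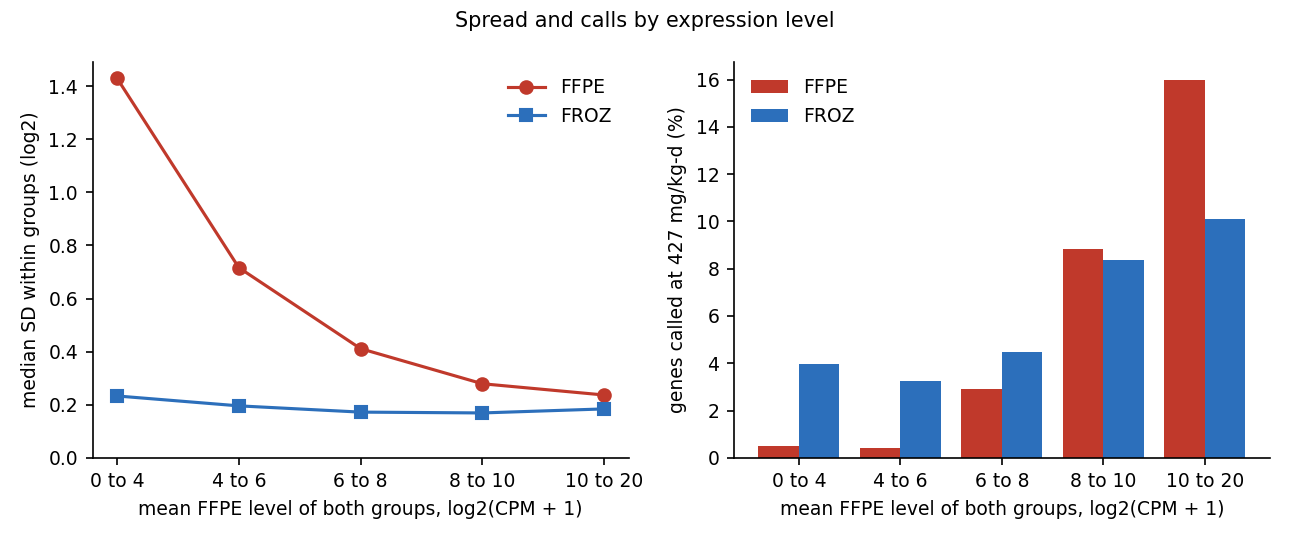
Median SD within groups (left, log2 scale) and share of genes called at 427 mg/kg-d (right) for genes in both tables, by mean FFPE level on the log2(CPM + 1) scale, in FFPE (red) and FROZ (blue). The FFPE SD falls from 1.43 to 0.237 with rising level, and the share called in FFPE rises from 0.481 to 16.0%.

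Of the FFPE DEGs, 37 were not DEGs in FROZ, and 32 of these had a FROZ FDR under 0.05 without passing the fold threshold. The 5 others were Serpina1b, Serpina1a, Cpt1b, Rprd1b and Mup4. Mup4, a major urinary protein, was the 1 DEG with an opposite sign, at -1.25 ± 0.31 (SE) in FFPE and 0.54 in FROZ (FDR = 0.0215 and 0.0611). Its coding sequence has many near copies.

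**Figure D4:**
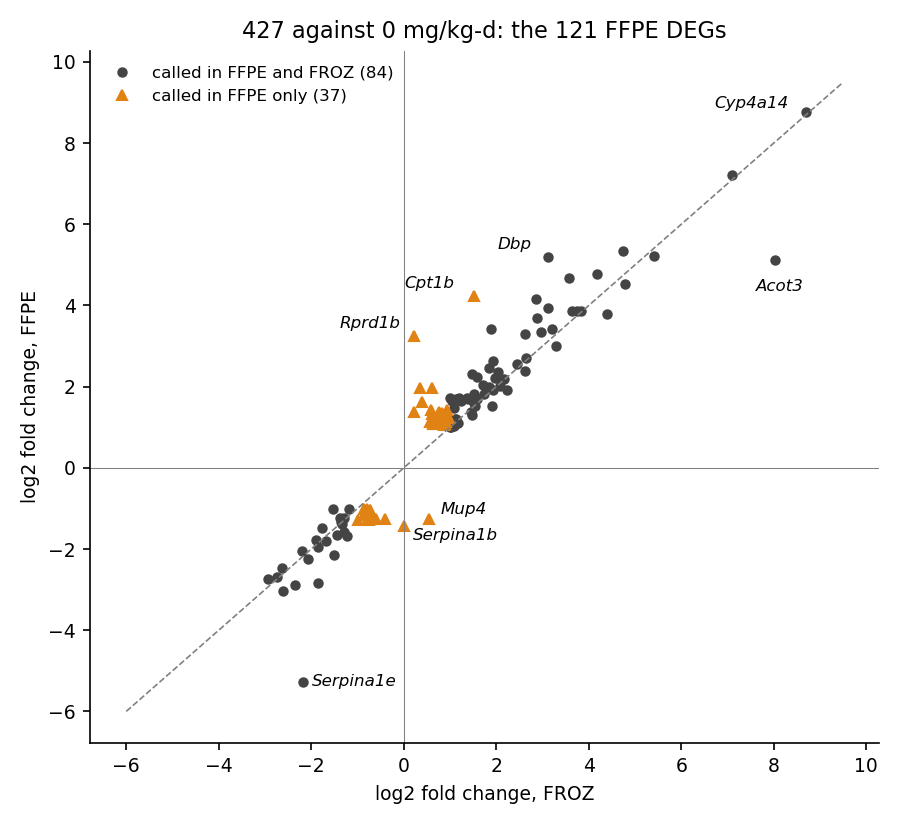
Log2 fold changes at 427 against 0 mg/kg-d in FROZ (horizontal) and FFPE (vertical) for the 121 FFPE DEGs, as circles for the 84 also called in FROZ and triangles for the 37 others, with the dashed line of equal change. Serpina1e and Serpina1b lie below the line, and Mup4 is the 1 gene with opposite signs.

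Whether the response differed between preservations was tested within animals, as the FFPE value minus the FROZ value. Of 6591 genes in both tables, 2 passed an FDR of 0.05 (0.0303%), and 146 had an unadjusted p under 0.05. Both belong to the Serpina1 cluster of α1-antitrypsin genes on chromosome 12. Serpina1e lay at 10.73 to 12.07 (median 11.67) in FFPE controls and at 12.43 to 13.39 (median 12.86) in FROZ controls, and at 427 mg/kg-d at 4.93 to 7.59 (median 6.58) in FFPE and 9.35 to 12.14 (median 10.46) in FROZ. It decreased in both, by 5.27 in FFPE and 2.18 in FROZ, and the difference was -3.09 ± 0.47 (SE, FDR = 0.00415). For Serpina1b, FROZ values were 12.71 to 13.14 (median 12.98) in controls and 12.74 to 13.01 (median 12.99) at 427 mg/kg-d, which overlapped. The decrease of 1.43 seen in FFPE was thus -0.0010 ± 0.12 in FROZ, with a difference of -1.43 ± 0.22 (SE, FDR = 0.00415). Without the animal as a block, the same 2 genes passed.

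Both genes carry the limit that 29.5% of the 50-base windows of Serpina1b and 34.6% of those of Serpina1e occur in other Serpina1 genes, and counts of these genes were assigned by expectation maximization. Serpina1a, at -1.26 ± 0.31 (SE) in FFPE and -0.40 ± 0.18 in FROZ, and Serpina1d, listed in FFPE alone, are relatives. To show how alike the loci are, the 250 bases before the starts of Serpina1b (chr12:103738190-103738439, - strand) and Serpina1e (chr12:103956898-103957147, - strand) are given, with no base in capitals.
Serpina1b: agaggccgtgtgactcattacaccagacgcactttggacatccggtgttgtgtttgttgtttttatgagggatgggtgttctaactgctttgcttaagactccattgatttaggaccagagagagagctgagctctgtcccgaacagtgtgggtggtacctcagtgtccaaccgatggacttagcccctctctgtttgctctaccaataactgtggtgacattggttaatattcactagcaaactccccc
Serpina1e: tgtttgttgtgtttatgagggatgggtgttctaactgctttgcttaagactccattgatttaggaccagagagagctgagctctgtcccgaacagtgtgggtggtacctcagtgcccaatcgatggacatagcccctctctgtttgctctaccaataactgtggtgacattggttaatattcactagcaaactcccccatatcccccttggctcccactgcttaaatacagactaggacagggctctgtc
Shifted by 52 bases they agree at 145 of 198 positions without gaps (73.2%). An ag repeat is longer in Serpina1b, so the bases before it are out of step in this count. The 73.2% thus understates how alike the sequences are, and no alignment with gaps was made.

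**Figure D5:**
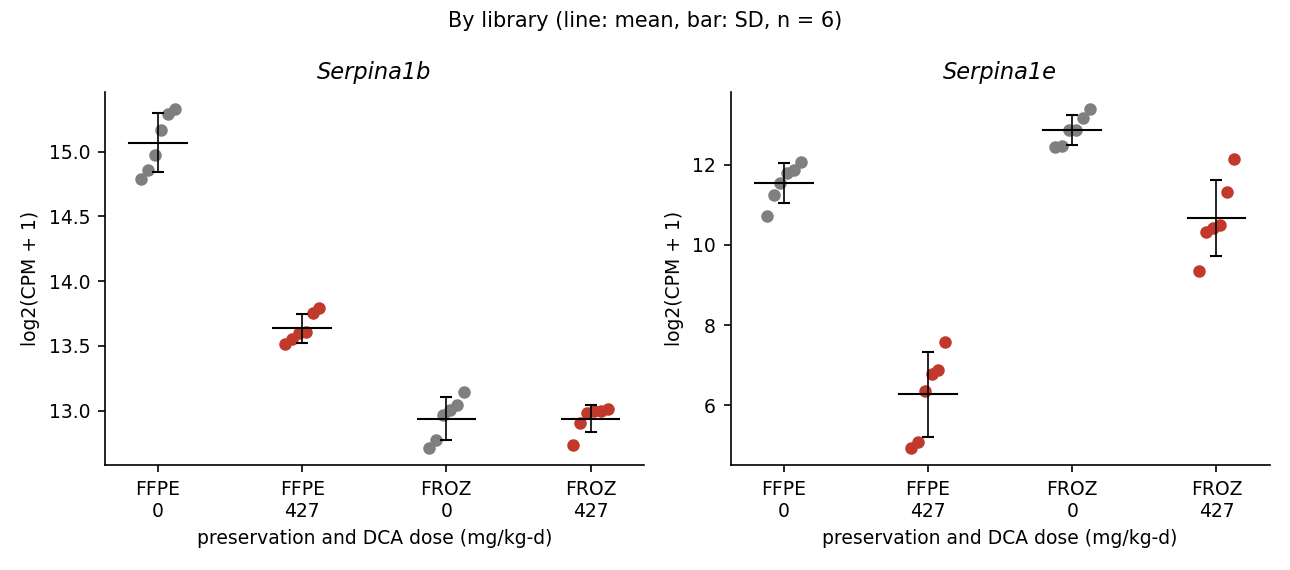
Serpina1b (left) and Serpina1e (right) on the log2(CPM + 1) scale in FFPE and FROZ libraries at 0 (grey) and 427 mg/kg-d (red), with 1 point per library, the mean as a line and the SD as a bar (n = 6), on axes that do not start at 0. Serpina1b is lower at 427 mg/kg-d in FFPE and overlaps in FROZ, and Serpina1e is lower in both.

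The highest dose was also compared with the next one, 313 mg/kg-d, without the controls. There, 18 of 6673 genes were DEGs (0.27%), 5 higher and 13 lower at 427 mg/kg-d, 25 had an FDR under 0.05, and 649 had an unadjusted p under 0.05. The median difference over all genes was 0.29. Of the 18, 10 were also DEGs against controls, all in the same direction. Both comparisons use the same 427 mg/kg-d libraries, which favours a shared direction. The log2 fold change was -2.92 ± 0.37 (SE, FDR = 2.33e-05) for Serpina1e, -2.62 ± 0.47 for Cyp7b1 and -1.19 ± 0.22 for C9. Lpin2 was higher by 1.42 ± 0.19 (FDR = 2.78e-05) and Abcc2 by 1.28 ± 0.29. The largest differences were those of the serum amyloids Saa2 and Saa1, at -4.46 ± 1.00 and -4.28 ± 0.80 (FDR = 0.031 and 0.00596), and Apcs, the serum amyloid P component, stood at -2.42 ± 0.31 (FDR = 2.33e-05). In these genes the median at 313 mg/kg-d lay above that of controls: 11.52 against 9.96 for Saa1, 9.15 against 6.35 for Saa2 and 8.06 against 7.13 for Apcs. The same order of medians was found in 8 of the 13 genes that were lower, and the median at 427 mg/kg-d lay below that of controls in all 13. Of other genes outside the naming rule, chosen like Saa2 and Apcs after their values were seen, Uox, the urate oxidase of peroxisomes, was higher by 1.09 ± 0.23, and the fibrinogen chain Fgg and the heme carrier Hpx stood at -1.34 ± 0.21 and -1.26 ± 0.21. Over the 121 DEGs against controls, 103 had group medians in the order 0, 313, 427 mg/kg-d. These genes were selected for a difference between 0 and 427 mg/kg-d, which favours a 313 mg/kg-d median between them. The share over all genes was not counted, so the order is no test of dose dependence. The libraries at 313 mg/kg-d held a median of 3.82e+06 reads and 630.5 genes at 0, against 5.10e+06 and 134 at 427 mg/kg-d, and the part of depth in this comparison was not tested. The 18 calls became 9 and 11 without animals 102 and 99 of the 427 mg/kg-d group, 10 without animal 75 or 77 of the 313 mg/kg-d group, and 38 without its animal 78.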

How the data were processed

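TempO-Seq was measured in FFPE and FROZ liver of the same 24 mice. The deposited values are log2 of CPM plus an offset of 1: the authors aligned reads with STAR 2.6 to mm10 in Partek Flow, quantified by expectation maximization, removed genes of low geometric mean and scaled each table on the genes kept. FFPE and FROZ levels are thus scaled separately. Values were used as deposited.

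The main test was limma 3.58.1 (R 4.3.3) with a mean trend over all 24 libraries of a table and Benjamini-Hochberg adjustment over all its genes, in place of the authors' own tool. It was also run on simulated, normally distributed values. The genes changed in that simulation had means well above 0, so calls of genes at or near 0 in controls were not checked by it. Fold changes are on the log2(CPM + 1) scale, which understates those of low genes. Response differences were tested on FFPE minus FROZ values per animal, since the animal numbers in the labels mark the same mouse (median correlation of deviations 0.128 for the same animal, -0.0232 otherwise, positive in 12 of 12). Library measures used exact permutation tests. Depth was estimated from the CPM of 1 read, within 0.05 of a read. Batches are not given in the sources used here. Promoters are from RefSeq (GRCm38.p6), and coordinates and shared windows of 50 bases from GENCODE on the same build.

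Gene lists were written from textbook knowledge, and members, lists, motifs and tests were chosen with earlier results of these data known. Named were the 5 label markers, the 12 largest increases and 12 largest decreases without overlap, up to 4 called members a list, Pdk1 to Pdk4, Gstz1, genes that differed in response, and up to 3 genes a list called in FROZ only. Genes beyond these, and the promoters shown, were chosen after their values or matches were seen. Some genes that met the rule are not reported here.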

Additional observations from a re-analysis of the deposited data

Results flagged for a closer look

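Named genes and library measures, in controls and at 427 mg/kg-d, gave 246 groups of 6 libraries. The highest or lowest library stood apart from the others by Dixon's test at 95% in 24 groups, all of them of genes. Chance gives about 1 in 20 for normally distributed values, which does not hold for genes with values at 0. All values are log2(CPM + 1). Control animal 3 was low for Dbi (5.90), C8b (4.87), C8a (9.53) and Trf (12.27), and listed at 0 for Fitm2 and Pigr. Control animal 8 stood apart for Saa1 (15.07), Aldh3a2 (6.50), Mup20 (3.25) and Gstm3 (8.33), and was listed at 0 for Gbe1. Control animal 4 stood apart for Lpin1 (10.27), G0s2 (5.11) and Prodh (9.26), animal 5 for Cyp4a32 (1.69e-05), animal 6 for Nr1d1 (0.24) and animal 7 for Mrpl38 (4.64).

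At 427 mg/kg-d, animal 98 stood apart for Acot1 (8.70), Retsat (9.67) and Ccnd1 (3.38). Animal 100 stood apart for Il1r1 (5.75) and Apoa4 (0.48) and was listed at 0 for Mt2, and animal 101 stood apart for Nr1i3 (7.82). Animal 3 thus held 6 of the 24, and animal 8 held 5.

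The response at 427 mg/kg-d differed between FFPE and FROZ for Serpina1b, by -1.43 on the log2 scale, and for Serpina1e, by -3.09, both with an FDR of 0.00415 in limma on the per-animal differences.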

How the results depend on the processing

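The 121 DEGs at 427 mg/kg-d became 281 (193 increased, 88 decreased) with library quality weights and 232 (155 and 77) with the 2 groups alone in the fit, while the decreased genes numbered 24 without the variance trend. Leaving out 1 library gave 94 to 118 DEGs, 65 to 80 increased and 28 to 38 decreased. The 18 DEGs against 313 mg/kg-d became 5 without the trend, 33 with the weights, and 9 to 38 without 1 library. The 2 genes that differed in response became 1 with an offset of 0.0001 CPM, where Serpina1e had an FDR of 0.0834, and 12 with the weights. Without the animal as a block there were 2, at -1.43 (FDR = 4.16e-07) and -3.09 (FDR = 0.00108), so the block changed neither call. The cause of these shifts was not tested.

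All 121 DEGs kept their sign in every alternative that tested them. Of 72 DEGs that met the naming rule, 43 passed in each of 19 alternatives and 58 without any 1 library. The offset of 0.0001 CPM ended 17 named calls, the fit without trend 13, and median-ratio scaling 4 (Slc27a2, Ugt1a6a, Ces1f and Mat1a).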

Other observations

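The 36 DEGs in no list, 27 increased and 9 decreased, were described after their values were seen. Uox, the urate oxidase of peroxisomes, lay at 10.91 to 11.72 (median 11.20) in controls and 12.68 to 13.22 (median 12.97) in treated libraries, so that it rose by 1.72 ± 0.23 (SE, FDR = 6.4e-06). Lonp2, the peroxisomal protease, rose by 1.01 ± 0.22, and Pank1, a pantothenate kinase of coenzyme A synthesis, by 1.71 ± 0.33. Slc16a5, a carrier of the monocarboxylate family, rose from 2.42–6.52 (median 4.12) to 7.53–8.94 (median 8.03), by 3.86 ± 0.83 (FDR = 0.00506). The lipases Abhd6 and Ddhd2 rose by 2.24 ± 0.38 and 2.36 ± 0.62. In each of these 6 genes all treated libraries lay above all controls.

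Among the decreased genes, Sdc4, a heparan sulfate proteoglycan of the cell surface, fell from 10.50–11.38 (median 11.15) to 9.63–9.98 (median 9.86), a log2 fold change of -1.24 ± 0.19 (SE, FDR = 5.84e-05). Il1rap, the partner chain of the interleukin-1 receptor, stood at -1.38 ± 0.37, and Il1r1 at -1.80 ± 0.36. Hgfac, the activator of hepatocyte growth factor, stood at -1.01 ± 0.19, and Cpn2, a subunit of carboxypeptidase N, at -1.16 ± 0.29.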
